A study of Rattus norvegicus with 9 samples.

Results

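The Hox genes of clusters A to D were examined in the pubococcygeus, a voluntary muscle that supports the pelvic organs of the rat, as the group of genes that records position along the body axis. All rows whose symbol was Hoxa, Hoxb, Hoxc or Hoxd followed by a number were taken, which gave 39 genes among 30518 rows. Of these, 11 belonged to HoxA, 10 to HoxB, 9 to HoxC and 9 to HoxD, and no symbol was repeated. Expression was measured by RNA sequencing of 9 libraries, 3 from each of 3 groups of female Sprague-Dawley rats. The study assigned 24 rats, 8 to each group. No source used here says whether each library came from a single rat, so p-values measure only the spread between libraries, which may be technical. Blank rats were left untouched. The SUI group, a model of stress urinary incontinence, underwent removal of both ovaries and vaginal distension, in which an 8 Fr catheter whose balloon held 3 mL of saline was loaded with 120 g for 4 h, and had no treatment afterwards. The stimulated group underwent the same ovary removal and distension and, starting 1 week later, received electrical stimulation of the pelvic floor through the vagina (50 Hz, 20 mA, pulses of 200 µs, 30 min a day, 5 days a week, 2 weeks). The SUI and stimulated groups thus shared the operation, and no group with sham stimulation or with a sham operation was part of the comparison.

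Hox genes encode homeodomain transcription factors and lie in 4 clusters, in which paralogue number runs from the 3′ to the 5′ end of each cluster. Low-numbered genes are switched on early and act towards the head, and high-numbered genes are switched on later and act towards the tail, so the combination of active Hox genes differs between body regions. Adult muscle and connective tissue keep part of that pattern long after development. In the trunk of vertebrates, genes of paralogue groups 9 and 10 act in the lower thoracic and lumbar region, group 11 in the sacral region and groups 12 and 13 in the tail, digits and the end of the urogenital tract.

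In the mRatBN7.2 assembly used by the authors, the members of HoxA lay between 81255883 and 81361091 on chromosome 4, those of HoxB between 81160498 and 81332836 on chromosome 10, those of HoxC between 134058640 and 134173133 on chromosome 7 and those of HoxD between 59570646 and 59667769 on chromosome 3. The HoxD cluster held both the highest Hox gene of this muscle and a sharp step within a row of neighbours: in fragments per kilobase and library size (FPKM, the scale per gene length deposited by the authors), Hoxd8, Hoxd9 and Hoxd10 averaged 18.4, 10.6 and 2.38 over the 9 libraries, and the next gene, Hoxd11, averaged 0.0363. The 250 bases upstream of these 4 starts are shown, from RefSeq for the GRCr8 assembly, all on the + strand, to set the sequence on both sides of that step next to the levels. Capitals mark CG dinucleotides. The stretches lie at chr3:80014973-80015222 for Hoxd8, chr3:80007756-80008005 for Hoxd9, chr3:80001697-80001946 for Hoxd10 and chr3:79992144-79992393 for Hoxd11.
Hoxd8: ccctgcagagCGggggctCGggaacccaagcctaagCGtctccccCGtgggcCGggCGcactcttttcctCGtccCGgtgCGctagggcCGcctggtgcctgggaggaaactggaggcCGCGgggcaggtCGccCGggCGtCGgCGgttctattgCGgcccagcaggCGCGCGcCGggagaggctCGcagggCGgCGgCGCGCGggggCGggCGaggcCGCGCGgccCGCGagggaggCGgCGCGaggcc
Hoxd9: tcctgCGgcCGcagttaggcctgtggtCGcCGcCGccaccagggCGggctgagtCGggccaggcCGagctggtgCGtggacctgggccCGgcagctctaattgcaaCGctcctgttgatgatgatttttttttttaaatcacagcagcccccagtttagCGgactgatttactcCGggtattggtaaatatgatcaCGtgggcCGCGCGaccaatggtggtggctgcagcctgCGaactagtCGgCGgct
Hoxd10: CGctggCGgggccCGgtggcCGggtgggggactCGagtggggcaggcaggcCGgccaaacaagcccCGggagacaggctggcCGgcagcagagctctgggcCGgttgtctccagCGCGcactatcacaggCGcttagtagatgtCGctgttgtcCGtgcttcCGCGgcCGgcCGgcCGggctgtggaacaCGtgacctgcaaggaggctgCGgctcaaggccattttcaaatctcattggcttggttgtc
Hoxd11: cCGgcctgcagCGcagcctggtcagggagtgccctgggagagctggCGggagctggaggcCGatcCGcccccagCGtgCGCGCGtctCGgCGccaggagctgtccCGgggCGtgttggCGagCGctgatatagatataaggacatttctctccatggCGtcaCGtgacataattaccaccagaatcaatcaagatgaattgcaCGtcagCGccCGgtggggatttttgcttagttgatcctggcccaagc

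The stretch before Hoxd8 held 38 CG dinucleotides, and those before Hoxd9, Hoxd10 and Hoxd11 held 20, 21 and 20. The observed number over the number that base composition gives was 0.998, 0.895, 0.757 and 0.859, so Hoxd11 was not set apart from its neighbours by this measure. RefSeq promoters were matched for 20 of the 39 symbols, in 21 entries since Hoxa10 has a pair of starts. The median ratio was 0.903 for the 12 entries of genes at or above 0.5 FPKM and 0.699 for the 9 entries of genes below it, against 0.383 over 33469 rat promoters. The 8-letter motif TGATNNAT, a form of the site bound by Hox proteins together with their cofactors, was searched on both strands of the same windows. It stood in 0 of 12 entries of the higher genes and in 3 of 9 of the lower ones (Hoxd11, Hoxa2 and Hoxb1), against 7.96% of all promoters, and a match of letters is a description and not a bound site.

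The Hox clusters also carry microRNA genes of the miR-10 and miR-196 families, whose known targets include Hox messages. Their mature 5p sequences are shown from RefSeq (GRCr8), with the seed, bases 2 to 8, in capitals.
rno-miR-10a-5p: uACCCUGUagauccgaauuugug
rno-miR-10b-5p: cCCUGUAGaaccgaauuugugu
rno-miR-196a-5p: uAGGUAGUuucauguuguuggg
rno-miR-196b-5p: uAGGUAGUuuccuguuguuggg
rno-miR-196c-5p: uAGGUAGUuucguguuguuggg
Both miR-10 sequences hold CCCUGUAG, but the listed miR-10b-5p starts 2 bases later than miR-10a-5p. Its marked bases are therefore shifted along the same stretch, and the marks do not show different seeds. The 3 members of the miR-196 family share the seed AGGUAGU. Of their rows, only Mir196b, which lies beside Hoxa10 in HoxA, had counts in all 9 libraries, with 8 to 39 per library. Blank replicate 1 had the fewest, but these counts are not scaled to depth and that library was the shallowest. Mir196a and Mir196c were listed at 0 throughout, Mir10a had at most 2 counts and Mir10b at most 1. Counts on a hairpin row of such a library do not measure the mature microRNA.

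The Hox genes above 0.5 FPKM in this muscle belonged to clusters A, C and D and to paralogue groups 3 to 11, with the highest levels in groups 8 to 10. Hoxd8, Hoxc10, Hoxd9 and Hoxa10 were the 4 highest members and together made up 64.1% of summed Hox FPKM (mean over 9 libraries, range 59.3% to 69.2%). Of the 39 members, 15 averaged at least 0.5 FPKM, of which 7 were in HoxA, 4 in HoxC, 4 in HoxD and 0 in HoxB. Another 19 had counts in at least 1 library but averaged below that level, and Hoxb1, Hoxb13, Hoxc12, Hoxc13 and Hoxd12 were listed at 0 in all 9 libraries. The level of 0.5 FPKM separates neighbours that do not differ beyond their spread: Hoxa3, just inside, averaged 0.50 and Hoxb3, just outside, 0.492. Hoxc6 was placed below the level, with a mean of 0.181 FPKM, but had 110 to 241 counts per library, where Hoxa3 had 90 to 240. The gene length implied by its counts and FPKM ran from 6.39 to 12.6 kb between libraries, so its FPKM and its place below the level are uncertain.

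**Figure D1:**
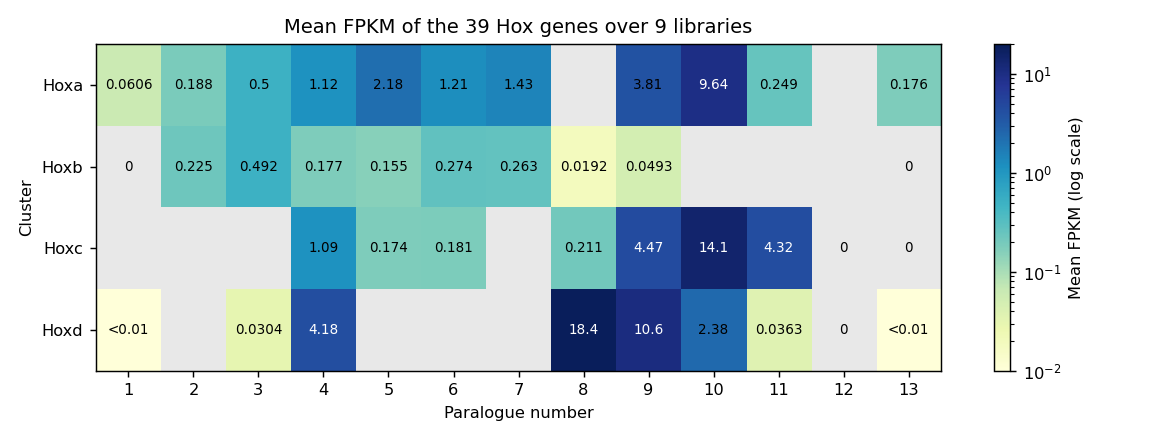
Mean FPKM over 9 libraries for each Hox gene, by cluster (rows) and paralogue number (columns), on a log colour scale, with grey cells marked 0 where a gene was listed at 0 throughout and grey cells without a value where no such member was found. The highest cells are Hoxd8 (18.4), Hoxc10 (14.1), Hoxd9 (10.6) and Hoxa10 (9.64), and no HoxB cell reaches 0.5.

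Hoxd8 (ENSRNOG00000071108, chromosome 3, 59607996 to 59610361, + strand), a mid-cluster gene, had 10.8, 20.9 and 19.9 FPKM in the blank libraries, 17.6, 22.9 and 20.4 in SUI and 16.8, 18.2 and 17.9 in the stimulated libraries. Blank replicate 1 was the lowest of the 9 in FPKM, and the ranges of the groups overlapped. In CPM, which scales counts to TMM-adjusted library totals, SUI replicate 1 was the lowest, at 32.2 beside 34.9 in blank replicate 1. With a mean of 18.4 FPKM (SD 3.43, n = 9), Hoxd8 stood at percentile 88.7 of mean FPKM among the 16256 genes tested.

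Hoxc10 (ENSRNOG00000016149, chromosome 7, 134103643 to 134108966, + strand), of the lumbar paralogue group and long used as a marker of hindlimb rather than forelimb tissue, had 21.9, 14.1 and 12.7 FPKM in blank, 11.7, 12.1 and 13.2 in SUI and 14.8, 11.7 and 15.2 in stimulated libraries. Blank replicate 1 was the highest here, where it was the lowest for Hoxd8 in FPKM. The mean was 14.1 FPKM (SD 3.18, n = 9), at percentile 85.7.

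Hoxd9 (ENSRNOG00000001580, chromosome 3, 59600575 to 59602754, + strand), which lies next to Hoxd8, had 5.16, 13 and 11.3 FPKM in blank, 11.2, 11.4 and 10.8 in SUI and 9.48, 12 and 11.4 in stimulated libraries. Blank replicate 1 lay below all others, and the 3 SUI values lay within the range of the stimulated ones. Hoxa10 (ENSRNOG00000065199, chromosome 4, 81331591 to 81340919, - strand), which patterns the lumbar spine and the uterus, varied least of the 4, with 7.52, 11 and 10.9 FPKM in blank, 10.0, 10.6 and 9.68 in SUI and 8.63, 9.07 and 9.22 in stimulated libraries. Their means were 10.6 (SD 2.26) and 9.64 FPKM (SD 1.15, n = 9), at percentiles 81.9 and 80.5.

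The order Hoxd8, Hoxc10, Hoxd9, Hoxa10 held in 7 of 9 libraries. In stimulated replicate 2, Hoxd9 came before Hoxc10, and in blank replicate 1 the order was Hoxc10, Hoxd8, Hoxa10, Hoxc9. The ranges of neighbours in this order overlapped over the 9 libraries, although the genes are paired within each library. For Hoxd8 and Hoxc10 the overlap came from blank replicate 1 (10.8 and 21.9 FPKM). In the other 8 libraries Hoxd8 ran from 16.8 to 22.9 FPKM and Hoxc10 from 11.7 to 15.2. Hoxd8 was above Hoxd9 and Hoxa10 in all 9 libraries, and the lowest Hoxc10 value (11.7 FPKM) lay above the highest Hoxa10 value (11 FPKM). Hoxc9 came next, with its highest value (5.94 FPKM, in blank replicate 1) below every value of Hoxd8, Hoxc10 and Hoxa10, and above only the value of Hoxd9 in that same library (5.16 FPKM).

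**Figure D2:**
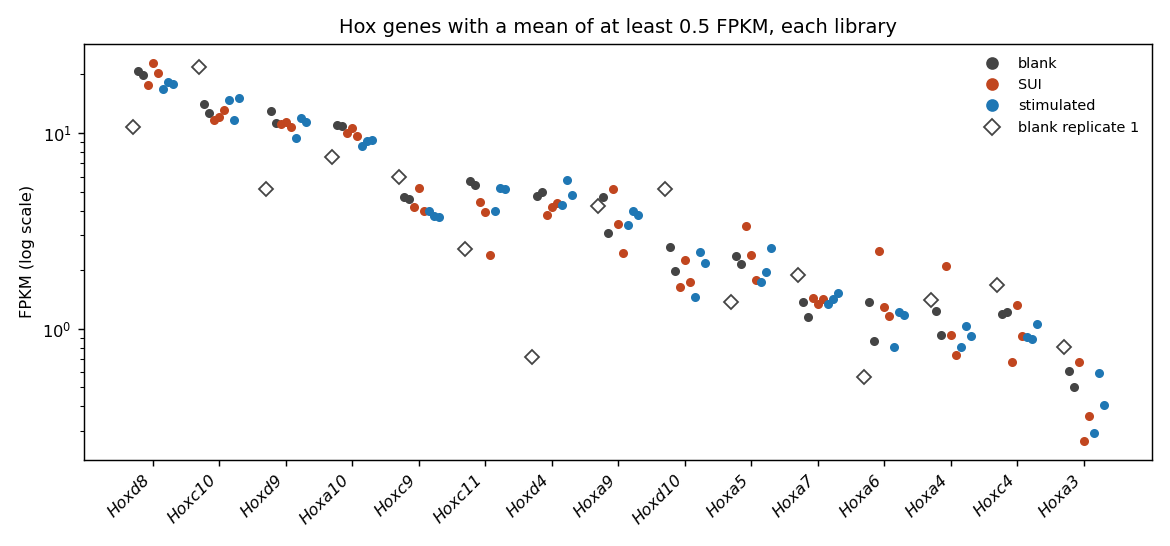
FPKM of the 15 Hox genes that averaged at least 0.5 FPKM (log axis), 1 point per library, coloured by group, with blank replicate 1 as an open diamond. The groups overlap in most genes, and blank replicate 1 lies apart from the other 8 in Hoxd4 (0.717 against 3.80 to 5.73) and Hoxd10 (5.17 against 1.45 to 2.61).

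A second tier lay near 4 FPKM. Hoxc9, of the lower thoracic paralogue group, had 5.94, 4.71 and 4.63 FPKM in blank, 4.18, 5.27 and 3.99 in SUI and 3.98, 3.77 and 3.74 in stimulated libraries. Hoxa9 of the same group had 4.23, 4.73 and 3.07, then 5.19, 3.41 and 2.43, and then 3.4, 4.01 and 3.80 in the same order of groups. All 3 stimulated values of Hoxc9 were below the 3 SUI values in FPKM but not in CPM, and those of Hoxa9 lay inside the SUI range.

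Hoxc11, the one member of the sacral paralogue group above 0.5 FPKM, had 2.56, 5.66 and 5.44 FPKM in blank, 4.47, 3.94 and 2.39 in SUI and 3.98, 5.24 and 5.19 in stimulated libraries. The lowest FPKM values were in SUI replicate 3 and blank replicate 1. Hoxa11, also needed for the uterus and kidney, ranged from 0.0763 to 0.425 FPKM, and Hoxd11 from 0 to 0.0970.

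Hoxd10, which acts with Hoxa10 and Hoxc10 in the lumbar cord and hindlimb, had 5.17, 2.61 and 1.97 FPKM in blank, 1.63, 2.24 and 1.73 in SUI and 1.45, 2.46 and 2.17 in stimulated libraries. Its highest value was in blank replicate 1, and the remaining blank libraries lay among or just above the others. Hoxd4, an anterior gene of the same cluster, went the other way in that library, with 0.717, 4.75 and 4.99 FPKM in blank, 3.80, 4.19 and 4.37 in SUI and 4.29, 5.73 and 4.80 in stimulated libraries.

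The remaining members above 0.5 FPKM were the middle and anterior genes of HoxA together with Hoxc4. Hoxa5, which acts in the lower neck and upper chest, had 1.37, 2.36 and 2.13 FPKM in blank, 3.36, 2.37 and 1.77 in SUI and 1.73, 1.95 and 2.59 in stimulated libraries. Hoxa6 had 0.567, 1.36 and 0.859, then 2.48, 1.29 and 1.16, and then 0.802, 1.21 and 1.17. In FPKM both were highest in SUI replicate 1 and lowest in blank replicate 1. In CPM this held for Hoxa6 only, as Hoxa5 was highest in stimulated replicate 3 (9.25) and lowest in stimulated replicate 2 (6.35).

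Hoxa7 had 1.87, 1.37 and 1.14 FPKM in blank, 1.44, 1.34 and 1.41 in SUI and 1.33, 1.42 and 1.52 in stimulated libraries, a narrow spread apart from blank replicate 1. Hoxa4 had 1.4, 1.23 and 0.925, then 2.09, 0.932 and 0.729, and then 0.801, 1.03 and 0.913. Hoxc4 had 1.67, 1.19 and 1.21, then 0.677, 1.32 and 0.912, and then 0.902, 0.887 and 1.05. For Hoxc4, the 3 stimulated values lay below the 3 blank ones.

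Hoxa3, which patterns throat structures in the embryo, had 0.807, 0.609 and 0.501 FPKM in blank, 0.677, 0.267 and 0.356 in SUI and 0.292, 0.589 and 0.404 in stimulated libraries. Its gene model spans 2004 bases of Hoxa4, 3882 of Hoxa5 and 2444 of Hoxa6 on the same strand, so how the counting divided reads among these 4 genes is uncertain. Hoxa11-as, a row on the opposite strand whose model does not overlap that of Hoxa11, had 9 to 154 counts per library. No source used here states the strand setting of the counting.

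Summed over members, paralogue group 10 averaged 26.2 FPKM, group 9 averaged 19.0 and group 8 averaged 18.6, nearly all of the last from Hoxd8. Group 4 followed at 6.57 FPKM, mostly Hoxd4, and group 11 at 4.61, mostly Hoxc11. Groups 12 and 13, the most posterior, summed to 0.0 and 0.183 FPKM, and groups 1 and 2, the most anterior, to 0.0666 and 0.413. All 3 members of group 10 were above 0.5 FPKM, as were 3 of 4 in group 9 and 3 of 4 in group 4. The remaining member of group 9, Hoxb9, had 0 to 11 counts per library.

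As shares of summed Hox FPKM (mean and SD over 9 libraries), HoxD took 43.1% (SD 5.54), HoxC 30.1% (SD 5.86), HoxA 24.9% (SD 2.34) and HoxB 2.00% (SD 0.702). The summed Hox level was 74.2, 92.4 and 84.3 FPKM in blank, 85.1, 86.4 and 78.1 in SUI and 75.0, 83.2 and 83.6 in stimulated libraries, or 83.6 ± 9.12, 83.2 ± 4.44 and 80.6 ± 4.85 (mean ± SD, n = 3). In FPKM the 3 group means lay within 1 SD of each other. FPKM is not adjusted by TMM, the scaling of library totals used in the tests. The TMM factors ran from 0.7443 in blank replicate 1 to 1.296 in SUI replicate 1. The summed level was not compared on that scale, where the group means may differ more. In whole-muscle RNA, fewer cells of a type and less RNA per cell cannot be told apart, and this holds for all levels given here.

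**Figure D3:**
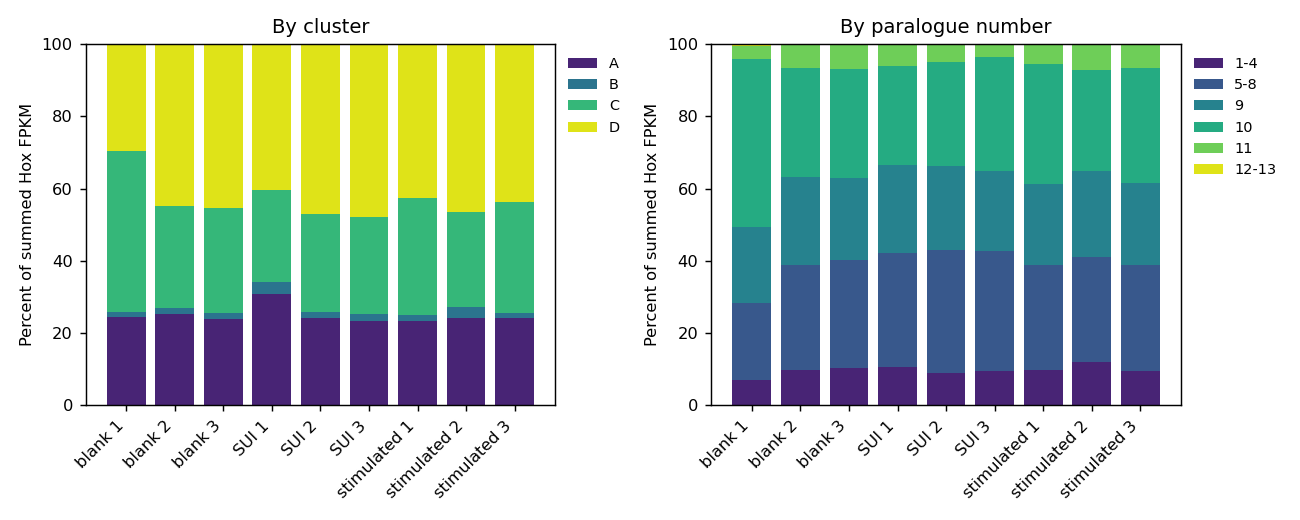
Share of summed Hox FPKM in each of the 9 libraries (stacked bars adding to 100%), by cluster and by paralogue number. Blank replicate 1 has the largest HoxC share (44.5%, against 25.4% to 32.2% elsewhere) and the smallest HoxD share (29.6%, against 40.4% to 47.8%).

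HoxB was the low cluster. Its share was highest in SUI replicate 1 (3.39%) and stimulated replicate 2 (2.91%), against 1.32% to 2.09% in the other 7 libraries. The same 2 libraries had the highest summed FPKM of 10 endothelial marker genes (99.9 and 125, against 58.7 to 85.3) and of 10 leukocyte marker genes (32.2 and 32.4, against 4.54 to 21.9). They also had the largest TMM factors, 1.296 and 1.093, and a larger factor lowers scaled values. These marker sums were not made on the TMM scale, where their order may differ. Not every gene of the 2 lists followed its sum. The leukocyte gene Ptprc had 0.187 FPKM in SUI replicate 1, below the blank values of 0.386, 0.454 and 0.277, and 1.12 in stimulated replicate 2. S100a8 and S100a9 were at their lowest in stimulated replicate 2 (0.144 and 0.127 FPKM). The part of these cells in the HoxB values was not tested.

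The Hox pattern of blank replicate 1 differed from that of all 8 other libraries, as the library itself did. It was the shallowest, with 50833480 counts against a median of 110699836 and a maximum of 147650284. Its mitochondrial share of counts was 32.9%, beside 13.4% to 17.7% in the rest, and its correlation over genes with each of the rest had a median of 0.947, where theirs were 0.967 to 0.984. Against the median FPKM of the other 8, Hoxd4 was 6.36-fold lower in it (121 counts, against 1076 to 2464 elsewhere), Hoxd9 was 2.20-fold lower and Hoxd8 was 1.77-fold lower. Hoxd10 was 2.50-fold higher and Hoxc10 was 1.69-fold higher. In CPM, counts scaled to each library's TMM-adjusted total, the size of these differences shifted and their direction did not, with Hoxd4, Hoxd9 and Hoxd8 4.7-fold, 1.58-fold and 1.29-fold lower and Hoxd10 and Hoxc10 3.45-fold and 2.35-fold higher. Paralogue group 10 took 46.6% of its Hox FPKM, against 27.4% to 33.1% elsewhere, and groups 5 to 8 took 21.4%, against 28.9% to 33.9%.

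Among the 15 members above 0.5 FPKM, blank replicate 1 had the lowest CPM of the 9 libraries in 3 (Hoxa6, Hoxd4 and Hoxd9) and the highest in 8. Over all genes tested it was the lowest in 33.2% and the highest in 24.0%, so being an extreme in that library was common outside the Hox genes as well. The part of its depth and mitochondrial share in these values was not tested, and the fold changes most affected are given with and without it.

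The groups were compared next, to ask whether ovary removal with distension, or stimulation after it, went with a different Hox pattern. Of the 39 members, 30 passed the filter on low counts (11 in HoxA, 6 in HoxB, 7 in HoxC and 6 in HoxD). Besides the 5 members at 0, Hoxb8, Hoxb9, Hoxd1 and Hoxd13 were not tested. All genes were tested together with edgeR's quasi-likelihood test and adjusted over 16256 genes at 0.05.

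Between SUI and blank, 0 of 30 Hox genes passed, and 0.0% of all genes did. At an unadjusted p under 0.05 there was 1 member, Hoxd10, or 3.33%, against 8.18% of all genes. DESeq2 called 1.06% of the genes it tested and 0 members. Of the 30, 15 were higher and 15 lower in SUI, with a median log2 fold change of -0.04 beside 0.01 over all genes. The groups did not overlap in CPM for 1 member, Hoxb6, against 15.1% of all genes.

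Hoxd10 had 15.6, 5.48 and 4.18 CPM in blank and 2.80, 4.89 and 3.95 in SUI. The SUI values overlapped the lowest blank one, and the difference came mostly from blank replicate 1. In edgeR the log2 fold change was -1.11 ± 0.47 (SE; 95% interval -2.15 to -0.07; unadjusted p = 0.0385, adjusted p = 0.588), and without blank replicate 1 it was -0.31. Hoxc10 was similar, with 70.6, 31.4 and 28.8 CPM in blank and 21.3, 28.1 and 32.0 in SUI, and its difference in edgeR was -0.68 ± 0.35 on the log2 scale (adjusted p = 0.61) and -0.14 without blank replicate 1.

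Hoxc11 had 8.05, 12.3 and 12 CPM in blank and 7.93, 8.91 and 5.64 in SUI, overlapping in blank replicate 1, and in edgeR its log2 fold change was -0.52 ± 0.24 (adjusted p = 0.607). Without blank replicate 1 it was -0.68 ± 0.21 (edgeR unadjusted p = 0.0122, adjusted p = 0.711). For Hoxa3 the edgeR value was -0.89 ± 0.42 (adjusted p = 0.607), and -0.43 without blank replicate 1. The highest members showed small differences with wide intervals, 0.09 for Hoxd8 (95% interval -0.41 to 0.59), 0.03 for Hoxd9 (-0.47 to 0.53) and -0.12 for Hoxa10 (-0.50 to 0.27) on the log2 scale. A change within these limits was not detectable with 3 libraries a group, and the limits are not adjusted over all genes tested.

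By cluster, all 7 tested HoxC genes were lower in SUI than in blank (median log2 fold change -0.52), and all 6 tested HoxB genes were higher (median 0.63), while HoxA had 5 higher and 6 lower and HoxD 4 higher and 2 lower. None of these genes passed the edgeR test, so the clusters are described by their direction only. Without blank replicate 1, HoxC had 2 higher and 5 lower with a median of -0.14. Without SUI replicate 1, when 7 HoxB genes passed the filter, 5 were higher and 2 lower with a median of 0.19. Without blank replicate 2, 6 of 7 were higher with a median of 0.30, and leaving out a stimulated library, which is no part of this comparison, also gave 6 of 7, with a median of 0.60. HoxC had 1 higher and 6 lower when library totals alone set the scale, and 2 higher and 5 lower with voom sample weights, which give outlying libraries less weight. With voom, HoxB had 5 higher and 1 lower, with a median of 0.45. All 6 tested HoxB genes averaged below 0.5 FPKM. With a mean CPM of at least 1, only 1 HoxB gene remained, at 0.08, and HoxC had 0 higher and 5 lower. Hoxb6, a gene of the trunk, had 0.159, 0.356 and 0.434 CPM in blank and 0.593, 0.497 and 0.575 in SUI.

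Between the stimulated and SUI groups, 0 of 30 Hox genes passed the edgeR test, against 0.0123% of all genes. At an unadjusted p under 0.05 there was 1 member, Hoxc11, or 3.33%, against 8.0% of all genes, and DESeq2 called 0 members and 1.11% of the genes it tested. In the stimulated group 16 members were higher and 14 lower (median log2 fold change 0.04, beside 0.02 over all genes). The groups did not overlap in CPM for 5 members, Hoxa6, Hoxb6, Hoxc5, Hoxc11 and Hoxd4, or 16.7%, near the 18.8% of all genes.

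Hoxc11 had 7.93, 8.91 and 5.64 CPM in SUI and 10.3, 11.2 and 12.2 in the stimulated libraries, with no overlap, and the stimulated values lay within the blank range of 8.05 to 12.3. The log2 fold change was 0.58 ± 0.24 (95% interval 0.04 to 1.12; edgeR unadjusted p = 0.0371, adjusted p = 0.587). It ran from 0.36 to 0.72 over the 19 alternatives, with adjusted p from 0.096 to 1.0. The lowest of these was from voom with sample weights.

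Hoxd4 had 9.53, 13.4 and 14.6 CPM in SUI and 15.7, 17.3 and 15.9 in the stimulated libraries. For the highest members the log2 fold change in edgeR was -0.08 for Hoxd8 (95% interval -0.57 to 0.42), 0.12 for Hoxd9 (-0.38 to 0.62) and -0.06 for Hoxa10 (-0.44 to 0.33). By cluster, 5 genes of HoxA were higher and 6 lower, and the numbers were 2 and 4 in HoxB, 5 and 2 in HoxC and 4 and 2 in HoxD.

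Between the stimulated and blank groups, 0 of 30 Hox genes passed the edgeR test, against 0.00615% of all genes, and 0 members had an unadjusted p under 0.05, against 3.77% of all genes. DESeq2 called 0 members and 0.144% of the genes it tested. Of the members 15 were higher and 15 lower, with a median log2 fold change of -0.01 beside 0.04 over all genes. The groups did not overlap in CPM for 4 members, Hoxa10, Hoxb2, Hoxc4 and Hoxd4, or 13.3%, against 12.6% of all genes.

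Hoxd10 was again lower, by edgeR at -0.89 ± 0.46 on the log2 scale (adjusted p = 0.898), which was -0.11 without blank replicate 1. Hoxd8 gave 0.02 (95% interval -0.48 to 0.51), Hoxd9 0.15 (-0.35 to 0.65) and Hoxa10 -0.17 (-0.56 to 0.21). The 3 comparisons share libraries in pairs, so their values are not independent of each other. Over 19 alternatives in each of the 3 comparisons, 57 fits in all, 0 Hox members were called, with 17 to 34 members tested and a lowest adjusted p of 0.096.

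**Figure D4:**
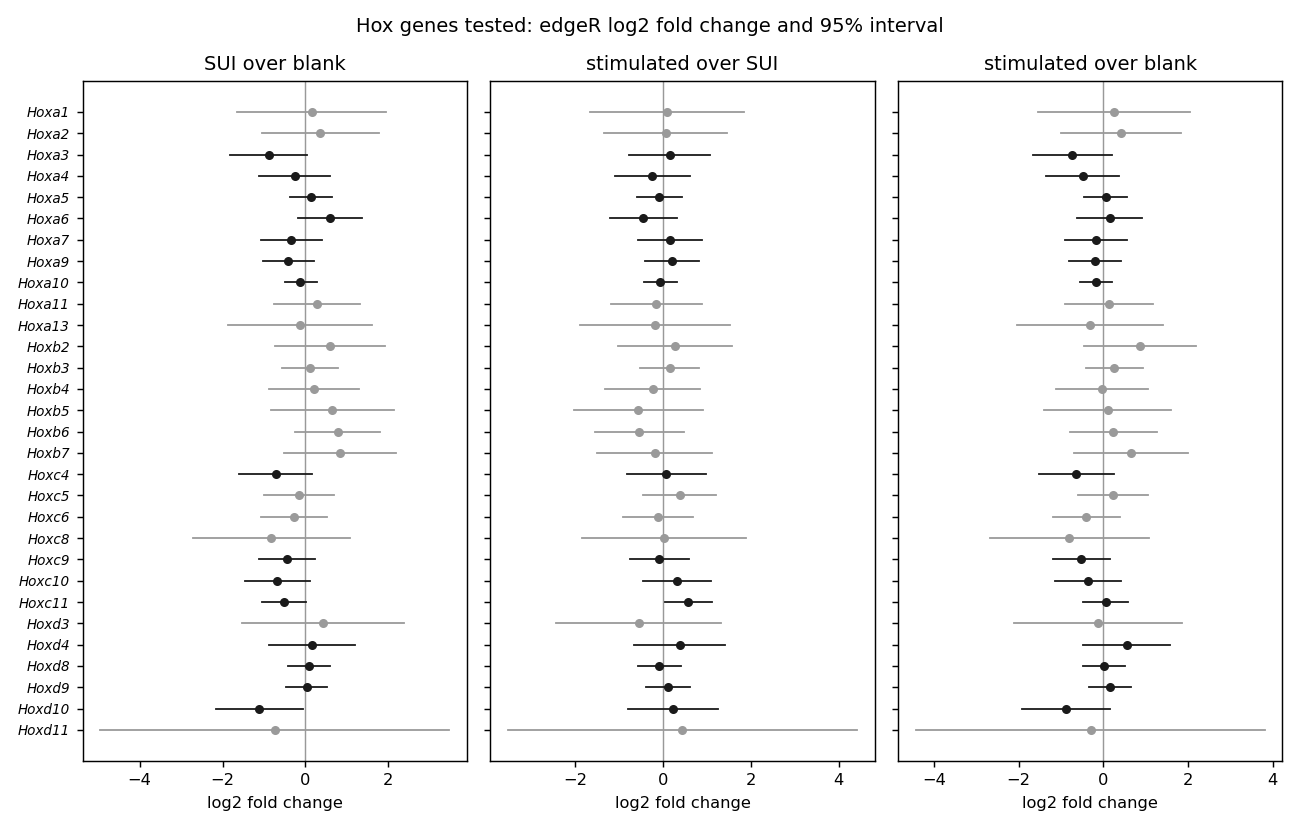
Log2 fold change from edgeR (points) with 95% intervals (bars) for the 30 Hox genes tested, in the 3 comparisons, in black for genes that averaged at least 0.5 FPKM and in grey for the others, with the vertical line at no change. The intervals include 0 except for Hoxd10 in SUI over blank (-2.15 to -0.07) and Hoxc11 in stimulated over SUI (0.04 to 1.12), and 0 members pass the adjusted test.

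Hox proteins bind DNA together with cofactors of the TALE homeodomain class, such as the Meis and Pknox proteins. Of 9 such genes, 8 were tested and 0 were called in any comparison by edgeR, with 1 higher and 7 lower in SUI than in blank, 6 higher and 2 lower in stimulated than in SUI, and 2 higher and 6 lower in stimulated than in blank. Meis1 had 2.36, 1.82 and 1.44 FPKM in blank, 1.59, 1.08 and 0.643 in SUI and 0.905, 2.06 and 1.44 in stimulated libraries, overlapping between all groups. Pknox1 had 4.00, 7.44 and 6.76 in blank, 3.39, 4.68 and 4.24 in SUI and 5.99, 4.94 and 4.81 in stimulated libraries.

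Other regional factors give position in terms that Hox genes do not. Of 33 limb and regional patterning genes, 32 matched a row, 29 were tested and 0 were called by edgeR, with 10 higher and 19 lower in SUI than in blank, 16 and 13 in stimulated than in SUI, and 14 and 15 in stimulated than in blank. The hindlimb genes Tbx4 and Pitx1 reached at most 0.0694 and 0.0397 FPKM, and the forelimb gene Tbx5 reached at most 0.0518. Isl1, which marks the hindlimb field and the cloacal region in the embryo, ranged from 0 to 0.362 FPKM. The T-box gene Tbx15, which acts in trunk mesoderm and in fast muscle fibres, was far higher, between 29.8 and 44.4 FPKM.

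Eya1, which acts in muscle formation, had 7.23, 3.55 and 3.65 FPKM in blank, 3.03, 2.77 and 1.17 in SUI and 2.29, 2.97 and 3.64 in stimulated libraries. Prrx1, a gene of limb and connective tissue mesenchyme, had 13.2, 5.57 and 5.82, then 6.45, 4.44 and 3.23, and then 4.43, 8.52 and 5.00. Both were highest in blank replicate 1, as Hoxc10 and Hoxd10 were. Six2 stayed between 0.0990 and 0.383 FPKM.

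Genes that flank the clusters without belonging to them did not share one level. Lnpk and Mtx2, which lie beside HoxD, averaged 12.4 FPKM each, and Calcoco1, beside HoxC, averaged 27.2. Evx2, the homeobox gene at the 5′ end of HoxD, was listed at 0 in all libraries, and Evx1, at the 5′ end of HoxA, reached at most 0.0254 FPKM. Of 9 flanking genes 6 were tested and 0 were called by edgeR, with 3 higher and 3 lower in SUI than in blank, 4 and 2 in stimulated than in SUI, and 2 and 4 in stimulated than in blank.

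The labelled tissue was checked against markers. Muscle fibre genes summed to between 50700 and 70000 FPKM in every library, with Acta1, skeletal muscle actin, between 16700 and 32000. Genes of urogenital epithelium, the lining that borders this muscle, summed to between 0.277 and 0.727 FPKM, and 9 of the 11 matched averaged under 0.1. Genes of fibroblasts and fibro-adipogenic progenitors, cells known to keep Hox expression in adults, summed to 479, 862 and 897 FPKM in blank, 870, 621 and 510 in SUI and 471, 1590 and 881 in stimulated libraries. By edgeR fold change all 12 were lower in SUI than in blank and higher in stimulated than in SUI, with 0 called. In FPKM this did not hold for every gene, as Gsn averaged 401 in blank and 407 in SUI. The FPKM sums overlapped between all groups, and stimulated replicate 1 had the lowest of the 9 and stimulated replicate 2 the highest. The part of these cells in the Hox values was not tested.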

How the data were processed

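The tools in the submitters' processing notes are Bowtie2, RSEM 1.3.1 and DESeq2 1.4.5, with the build mRatBN7.2. Expected counts per gene were deposited as whole numbers, and the deposited FPKM values were scaled by gene length and library by the authors, per the file headers. Of 30518 rows, 4341 lacked a symbol. Totals ran from 50833480 to 147650284 counts, where 3 counts equal 0.021 to 0.0794 CPM, a floor for counting error only. Groups followed the sample titles, although library names call the SUI group sham. All libraries carry 1 batch label.

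Counts were filtered (filterByExpr, 16256 genes), scaled by TMM and tested with edgeR 4.0.16 (R 4.3.3, quasi-likelihood, robust, 9 libraries in one fit, Benjamini-Hochberg at 0.05). CPM used the TMM-scaled totals. Levels and shares used FPKM. The edgeR and DESeq2 fits were also run on simulated counts, read for SUI over blank only. No simulated library was an outlier beyond its depth and scaling, so a library such as blank replicate 1 was not covered. Alternatives were DESeq2 1.42.0, DESeq2 size factors, library totals, 2 filters, voom with sample weights and log2 FPKM with pseudocounts of 1 and 0.1 (limma 3.58.1), the 6 libraries compared, a replicate block and leaving out each library.

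The members and gene lists were chosen with earlier results of these data known. Members were named with values in each library from a mean of 0.5 FPKM or an unadjusted p under 0.05. Up to 4 genes of each further list were named by smallest p, with Tbx4, Pitx1, Tbx5, Isl1 and Meis1. Some genes that this rule names are not reported here. Hoxb6, Hoxc6, Tbx15, the low Hox11 and Hoxb9 genes, the flanking genes and the single marker genes of leukocytes and fibroblasts were named after their values were seen.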

Additional observations from a re-analysis of the deposited data

How the results depend on the processing

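With 3 libraries a group, unadjusted 95% intervals of the 15 higher members spanned 0.39 to 1.04 on the log2 scale to either side, so smaller group differences were not detectable. Larger ones could be missed too, since the test adjusts over 16256 genes. For SUI over blank, Hoxd10 was at -1.11, beyond its half-width of 1.04, with an edgeR adjusted p of 0.588. The shares by cluster and paralogue number stayed within 1 SD under all 11 alternatives run for each, with HoxD from 42.5% to 44.8% and HoxC from 28.2% to 30.6%. Most of these alternatives left out 1 library, which cannot move a mean over 9 libraries by 1 SD. Staying within that limit was therefore largely fixed in advance and is no test of the pattern.

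The number of Hox members called was 0 under every alternative, while the number of genes called over the whole table moved. It was 0 for SUI over blank and became 186 with DESeq2 and 0 to 1 when each library was left out in turn. For stimulated over SUI it was 2 and became 198 with DESeq2, 48 with voom and sample weights, 1 with library totals only, 0 with the 6 libraries compared, 0 with log2 FPKM at either pseudocount, and 0 to 3 when each library was left out. For stimulated over blank it was 1 and became 27 with DESeq2, 0 with the 6 libraries compared, 0 with log2(FPKM + 1), and 0 to 1 when each library was left out. The cause of these differences was not tested.

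Scaling by library totals alone shifted the median of all genes to 0.19, -0.11 and 0.09 (log2) for SUI over blank, stimulated over SUI and stimulated over blank. The median log2 fold change of the tested Hox members for SUI over blank was then 0.18, and it was -0.32 with a mean CPM of at least 1, -0.15 with DESeq2, 0.15 with log2(FPKM + 0.1) and -0.12 to 0.09 when each library was left out. For stimulated over SUI it was -0.10 with library totals only and -0.10 to 0.05 when each library was left out. For stimulated over blank it was -0.19 with a mean CPM of at least 1 and -0.17 to 0.01 when each library was left out.

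The sign of the small fold changes of the highest members was not fixed. Hoxa10 for SUI over blank was 0.05 with library totals only and 0.06 on log2 FPKM at either pseudocount, and Hoxd9 was -0.07 with voom. Hoxd9 for stimulated over SUI was -0.02 on log2 FPKM at either pseudocount. Hoxd8 for stimulated over blank was -0.01 with DESeq2 size factors, with DESeq2 and with the 6 libraries compared, and -0.08 with voom. When each library was left out, Hoxd8 ran from -0.07 to 0.27 and Hoxd9 from -0.15 to 0.20 for SUI over blank, Hoxd8 from -0.26 to 0.06 and Hoxa10 from -0.16 to 0.02 for stimulated over SUI, and Hoxd8 from -0.12 to 0.10 and Hoxd9 from -0.07 to 0.32 for stimulated over blank.

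Replicate numbers did not pair the libraries: same-numbered deviations from the group means correlated between -0.319 and 0.125, and 2 of 18 were highest with their own number. With a replicate block, 0, 1 and 0 genes and 0 Hox members were called in the 3 comparisons.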

Other observations

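Genes that keep Hox clusters silent or open, the Polycomb and trithorax group, were all measured. All 26 passed the filter and 0 were called by edgeR, with 14 higher and 12 lower in SUI than in blank and 10 higher and 16 lower in both comparisons of the stimulated group. Jarid2, a partner of the Polycomb complex PRC2, had 2.69, 2.79 and 3.09 FPKM in blank, 1.77, 2.25 and 1.87 in SUI and 3.39, 3.86 and 3.63 in stimulated libraries, with no overlap between any 2 groups. Its adjusted p in edgeR was 0.279 for stimulated over SUI, the lowest of this list. Men1, which encodes menin of a trithorax-type complex, had 0.777, 1.69 and 1.72, then 3.70, 2.78 and 2.25, and then 1.13, 2.10 and 1.76, so that all SUI values were above those of both other groups.

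Retinoic acid, made by Aldh1a enzymes, and the Cdx factors set Hox expression in the embryo. Of 17 such genes 13 were tested and 0 were called by edgeR, and Cdx2 and Cdx4 were listed at 0 in all libraries. Aldh1a1 had 4.85, 7.84 and 6.57 FPKM in blank, 7.07, 24.3 and 8.07 in SUI and 18.6, 18.3 and 20.7 in stimulated libraries, where the stimulated values lay above all blank ones. Rarb, a retinoic acid receptor, had 0.266, 0.539 and 0.407, then 0.343, 0.336 and 0.555, and then 0.590, 0.900 and 0.670. The list summed to 33.0 FPKM in blank replicate 1 and to between 71.3 and 92.0 in the others.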
